A study of Mus musculus with 32 samples.

Results

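The nuclear-encoded subunits of the mitochondrial respiratory chain were followed through polysome profiling of 4T1 spheroids. They were chosen by gene symbol: Nduf genes of the a, b, c, s and v series (complex I), Sdha to Sdhd (complex II), Uqcr genes (complex III), Cox4 to Cox8 genes (complex IV) and Atp5 genes (ATP synthase, complex V), without symbols marked as pseudogenes by -ps. GENCODE M21 lists Cox6c2, Ndufb4c and Ndufs6b, which the rule kept, as processed pseudogenes and Ndufb1 as a non-coding RNA. The rule found 83 of the 17757 genes of the count table, of which 39 belong to complex I, 4 to complex II, 8 to complex III, 15 to complex IV and 17 to complex V. A mean of at least 50 counts per library was reached by 78 of them. The other 5 were Cox4i2, Cox6a2, Cox6c2, Cox7a1 and Ndufs6b, with mean counts of 1.25, 1.94, 3.16, 4.56 and 0.719, and they stand in every count out of 83 but in no median or length comparison.

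4T1 is a mouse mammary carcinoma cell line used as a model of triple-negative breast cancer. Spheroids were kept for 5 days in a medium that mimics the nutrients of the lung, in 4 conditions. ASP shSCR spheroids carried a non-targeting shRNA and received 700 µM aspartate, and NoASP shSCR spheroids carried the same shRNA without added aspartate. ASP shGRIN2D spheroids carried an shRNA against Grin2d, which encodes a subunit of the NMDA-type glutamate receptor, and ASP shDHPS spheroids an shRNA against Dhps, which encodes deoxyhypusine synthase, the enzyme that starts the hypusine modification of the translation factor eIF5A. Both knockdowns received 700 µM aspartate as well, and both were made with lentiviral vectors and drug selection, so all groups carried an integrated shRNA vector. Each condition had 4 pellets, and each pellet gave a polysomal library (mRNA on more than 3 ribosomes) and a sub-polysomal library (fewer than 3), 32 libraries in all. The question the design asks is whether aspartate, GRIN2D and DHPS change which mRNAs sit on polysomes.

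The respiratory chain passes electrons from NADH and succinate to oxygen through complexes I to IV, and ATP synthase uses the proton gradient that complexes I, III and IV build. Most of its subunits are encoded in the nucleus, translated on cytosolic ribosomes and imported, while a small core is encoded by mitochondrial DNA and translated inside the organelle. Many of the nuclear-encoded subunits are very small proteins, and their mRNAs have short coding regions.

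Coding sequences of 3 such subunits are printed here because genes of like length lay far apart in these data. Cox8a, Cox7c and Cox7b encode small subunits of complex IV. They were read 5′ to 3′ from GENCODE M21 transcripts (GRCm38), with the start and stop codons in capitals.
Cox8a: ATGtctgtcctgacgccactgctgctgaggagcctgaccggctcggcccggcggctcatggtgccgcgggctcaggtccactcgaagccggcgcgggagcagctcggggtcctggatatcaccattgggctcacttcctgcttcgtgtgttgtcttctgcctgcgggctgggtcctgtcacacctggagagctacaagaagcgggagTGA
Cox7c: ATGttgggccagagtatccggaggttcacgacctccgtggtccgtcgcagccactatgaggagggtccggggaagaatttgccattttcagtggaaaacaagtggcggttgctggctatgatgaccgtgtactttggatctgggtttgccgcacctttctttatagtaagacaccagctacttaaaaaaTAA
Cox7b: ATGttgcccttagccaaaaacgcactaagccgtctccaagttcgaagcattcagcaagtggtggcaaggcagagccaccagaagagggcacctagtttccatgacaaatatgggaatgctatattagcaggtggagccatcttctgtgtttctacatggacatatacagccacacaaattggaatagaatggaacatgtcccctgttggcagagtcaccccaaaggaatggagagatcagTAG
These run over 210, 192 and 243 bases. In that annotation Cox8a (ENSMUSG00000035885) lies at chr19:7215153-7217616 on the minus strand, Cox7c (ENSMUSG00000017778) at chr13:86044816-86046904 on the minus strand and Cox7b (ENSMUSG00000031231) at chrX:106015700-106022450 on the plus strand, all as protein-coding genes. The authors mapped to GRCm39, so these positions belong to the annotation and not to the counts.

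The libraries held 12870563 to 25639437 counts each. The subunits took 1.62% ± 0.312 (SD, n = 16) of the counts in polysomal libraries and 1.49% ± 0.179 (SD, n = 16) in sub-polysomal libraries. The polysomal library of ASP shSCR replicate 1 stood apart from the rest. It gave the subunits 0.870% of its counts, the lowest share of all libraries, against 2.11%, 1.55% and 1.47% in the other ASP shSCR polysomal libraries. It gave the mitochondrially encoded subunits 4.31%, against 0.678% to 0.935% in those 3 libraries, and 0.411% of its counts were mitochondrial rRNA, against 0.0135% to 0.0694%. The main counts and medians that rest on ASP shSCR are therefore also given without that pellet, and what set this library apart was not tested.

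The cells were of the labelled kind as far as markers go. All 7 epithelial markers were measured, at a summed 1946 to 7003 CPM per library (read counts over library size, scaled by the trimmed mean of M-values, TMM), with Krt8 the highest at a mean of 1361. Of 5 leukocyte markers 2 were in the table, at a summed 5.14 to 26.7 CPM and mostly Cd68, with Ptprc under 1 CPM. Only Pecam1 of 3 endothelial markers was in the table, at 0 to 0.658 CPM, and 2 of 5 fibroblast markers, at 8.15 to 35.7 CPM and mostly Pdgfra. In bulk libraries fewer cells of a type and less RNA per cell cannot be told apart.

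Dhps mRNA was at 42.9, 33.2, 43.3 and 41.3 CPM in the sub-polysomal libraries of ASP shSCR and at 9.98, 10.8, 10.2 and 8.96 CPM in those of ASP shDHPS. The groups did not overlap, and the log2 difference was 2.01 ± 0.16 (SE, edgeR adjusted p = 1.11e-08). In the polysomal fraction it was 1.64 ± 0.23 (edgeR adjusted p = 0.0167). Grin2d was a scarce mRNA, at 4.29, 3.74, 6.91 and 3.32 CPM in the sub-polysomal libraries of ASP shSCR and at 2.59, 1.87, 2.62 and 2.89 CPM in those of ASP shGRIN2D. These groups did not overlap either, but the log2 difference of 0.88 ± 0.29 did not pass (edgeR adjusted p = 0.232), and neither did 1.14 ± 0.33 in the polysomal fraction (edgeR adjusted p = 0.263).

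Within each condition the log2 ratio of polysomal to sub-polysomal mRNA was tested per gene. A ratio of 0 means equal TMM-scaled levels in the polysomal and sub-polysomal libraries, each scaled to its own depth. Ratios and calls are therefore relative to other genes and do not give the share of an mRNA in each fraction. The subunits split in both directions. In ASP shSCR 13 of the 83 were polysomal (ratio above 0 at an adjusted p under 0.05) and 34 sub-polysomal, where 20.8% and 18.9% of all genes were called in these directions. In NoASP shSCR the counts were 16 and 30 (23.7% and 20.6% of all genes), in ASP shGRIN2D 18 and 30 (23% and 20.4%) and in ASP shDHPS 30 and 24 (21.8% and 21.3%). Without ASP shSCR replicate 1, 16 were polysomal and 29 sub-polysomal in ASP shSCR (20.7% and 19.7% of all genes), with 6 and 13 in complex I, 4 and 0 in complex II, 2 and 4 in complex III, 0 and 6 in complex IV and 4 and 6 in complex V.

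Most calls recurred. The test called the ratio above 0 in all 4 conditions for 12 subunits, against 15% of all genes: Ndufs1, Ndufs8, Ndufv1, Ndufa9, Ndufc2, Sdha, Sdhb, Sdhc, Uqcrc1, Uqcrc2, Atp5a1 and Atp5b. It called the ratio below 0 in all 4 for 24 subunits, against 14.2% of all genes: 12 of complex I (Ndufa1, Ndufa2, Ndufa3, Ndufa6, Ndufb1, Ndufb5, Ndufb7, Ndufb8, Ndufb9, Ndufc1, Ndufs6 and Ndufv3), Uqcr10 and Uqcrq of complex III, 6 of complex IV (Cox6a1, Cox6c, Cox7a2, Cox7a2l, Cox7c and Cox8a) and 4 of ATP synthase (Atp5e, Atp5j, Atp5md and Atp5mpl). A further 27 were called in 1 to 3 conditions in a single direction (27.9% of all genes), 19 in none (42.7%), and 1, Ndufa13, in opposite directions (0.231%), which rested on single pellets. With 1 pellet left out, sub-polysomal calls in ASP shDHPS fell to 16 to 23, so the set of 24 held whole in none of these fits. Polysomal calls in ASP shSCR then ran from 9 to 16.

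**Figure D1:**
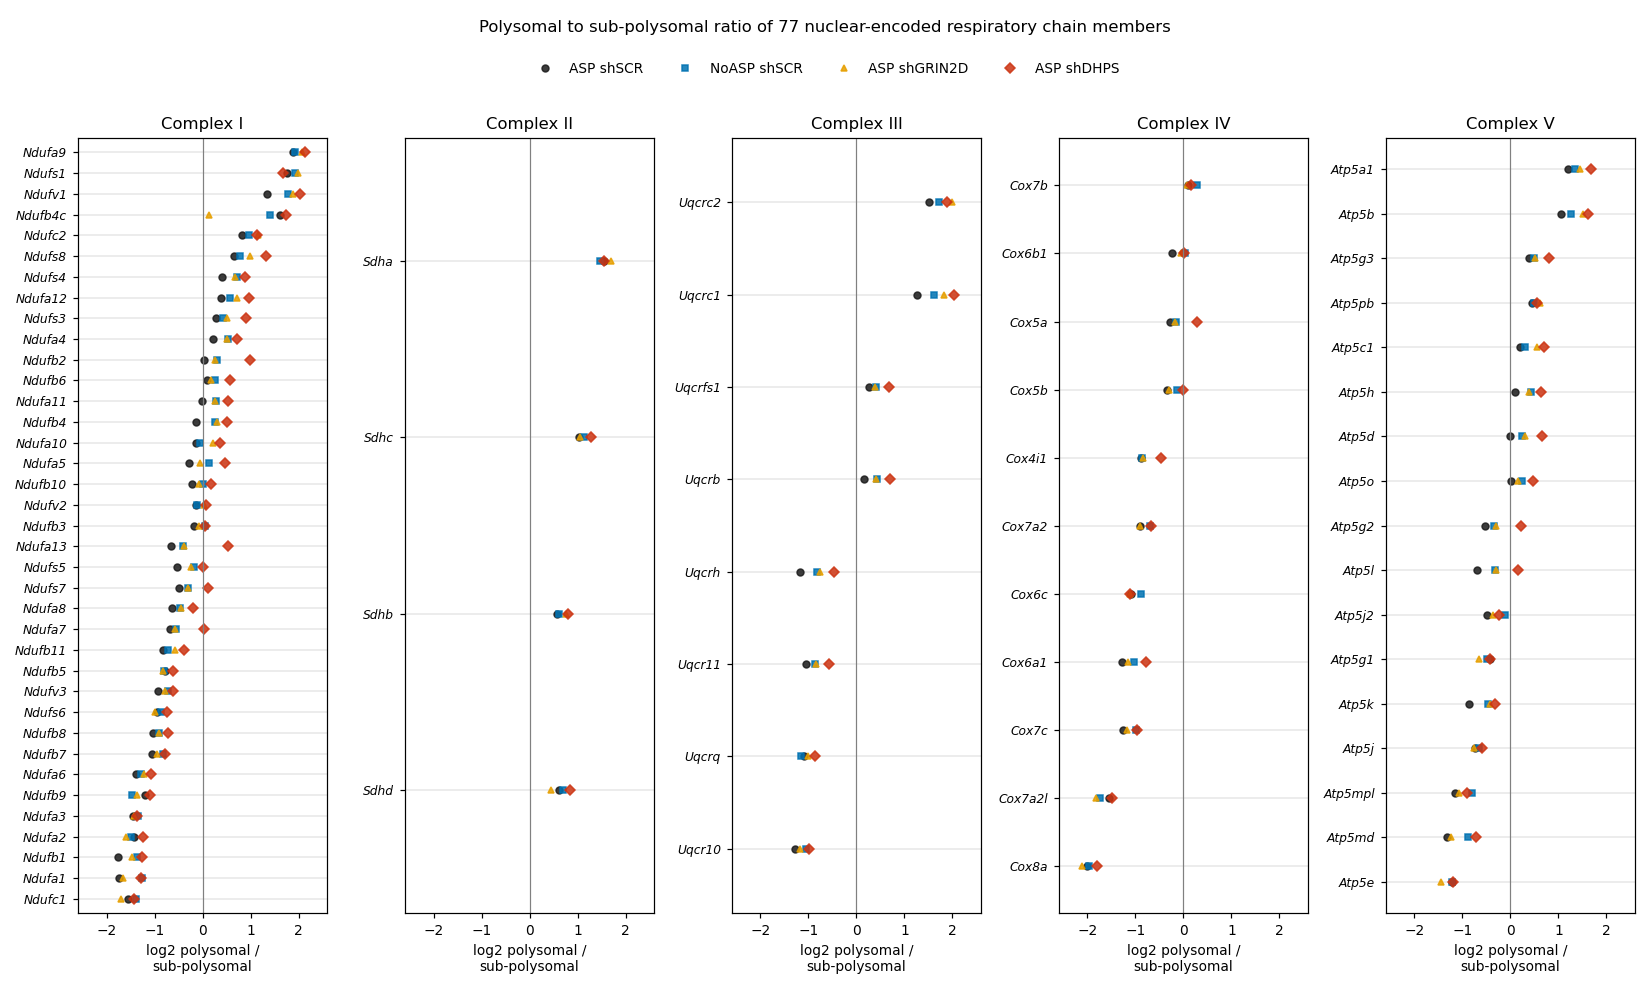
Fitted log2 polysomal to sub-polysomal ratio (x axis) of 77 subunits with a mean of at least 50 counts, with 1 panel per complex and 1 point per condition. Ndufa9, Sdha, Uqcrc2 and Atp5a1 stand at the top of their panels and Ndufc1, Cox8a and Atp5e at the bottom, and the complexes I, III and V reach to both sides of 0.

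In complex I the 7 core subunits carry the flavin, the iron-sulfur clusters and the quinone site. They lay higher than the accessory ones, with the higher median in each of the 16 pellets. Accessory here means every other Nduf-named gene with a mean of at least 50 counts, Ndufa4 and the pseudogene Ndufb4c included. The core subunits also have long coding regions, from 639 bases (Ndufs8) to 2184 (Ndufs1). Of the accessory genes with an annotated length, only Ndufa9, Ndufa10 and Ndufv3 reach 639 bases. The part of coding length in this difference was not tested. Ndufs1, the large iron-sulfur subunit, had a mean log2 ratio of 1.83 ± 0.44 (SD over 16 pellets) and Ndufv1, which binds NADH, 1.76 ± 0.49. Ndufs8 and Ndufs3 followed at 0.93 and 0.53, while Ndufv2 and Ndufs7 were at −0.04 and −0.25. The highest subunit was accessory: Ndufa9, which sits near the quinone site, at 2.00 ± 0.34. Its pellets gave 1.04, 2.36, 2.27 and 1.83 in ASP shSCR, 2.06, 2.07, 1.81 and 1.79 in NoASP shSCR, 2.05, 2.01, 2.39 and 1.85 in ASP shGRIN2D and 2.14, 2.49, 2.01 and 1.87 in ASP shDHPS. Only replicate 1 of ASP shSCR fell under 1.79, and the ratio passed in every condition (fitted 1.88 ± 0.19 in ASP shSCR, edgeR adjusted p = 7.69e-08).

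At the other end were Ndufc1, Ndufa1, Ndufb1, Ndufa2 and Ndufa3, small accessory subunits, at −1.52, −1.49, −1.47, −1.44 and −1.40. Ndufb9 (−1.29) and Ndufv3 (−0.76) were sub-polysomal with longer coding regions, 540 bases and, for the transcript used, 1407. Ndufc1 and Ndufc2, which touch each other in the membrane arm, lay on opposite sides of 0: Ndufc2 exceeded Ndufc1 in 16 of 16 pellets by 2.53 ± 0.50 (SD) on the log2 scale. Ndufa4, named for complex I but now placed with complex IV, was at 0.50 ± 0.60 and was called polysomal in 1 condition. Ndufb4c, at 1.55 ± 2.19 and a mean count of 96.3, varied too much between pellets to be placed, and as a near copy of Ndufb4 its reads may have been split between both.

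Complex II, succinate dehydrogenase, is the one complex without a mitochondrially encoded subunit, and none of its subunits was sub-polysomal in any condition. Sdha, the flavoprotein, had ratios of 1.17, 1.41, 1.60 and 2.01 in ASP shSCR, 1.44, 1.11, 1.36 and 1.97 in NoASP shSCR, 1.94, 1.32, 1.64 and 1.91 in ASP shGRIN2D and 1.59, 1.39, 1.32 and 1.90 in ASP shDHPS. All pellets were above 1 and the conditions overlapped. The membrane anchors Sdhc and Sdhd were at 1.12 ± 0.42 and 0.65 ± 0.37, and the iron-sulfur subunit Sdhb at 0.68 ± 0.29. Sdhd did not pass in ASP shGRIN2D (0.45 ± 0.20, edgeR adjusted p = 0.0622), and in ASP shSCR, where it passed at 0.61, it no longer did without replicate 2, 3 or 4 (0.42, 0.51 and 0.59).

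In complex III the core proteins Uqcrc2 and Uqcrc1 were at 1.78 ± 0.33 and 1.69 ± 0.46, polysomal in every condition. The Rieske protein Uqcrfs1 and the quinone-binding Uqcrb were at 0.44 and 0.42. The small subunits Uqcr10, Uqcrq, Uqcr11 and Uqcrh were at −1.13, −1.03, −0.83 and −0.81.

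Of complex IV, counted here by its 15 Cox-named genes, no mRNA was called polysomal in any condition. Sub-polysomal were 7 in ASP shSCR, in NoASP shSCR and in ASP shGRIN2D and 6 in ASP shDHPS. Ndufa4, left out of this count by its name, was called polysomal in 1 condition. For this and the other complexes, the shares of all genes called in each direction are those given above for each condition. Cox8a was the lowest of all subunits with enough counts, at −1.97 ± 0.32. Its pellets gave −1.91, −1.80, −2.56 and −1.75 in ASP shSCR, −2.12, −1.87, −2.04 and −1.86 in NoASP shSCR, −2.84, −1.86, −1.85 and −1.92 in ASP shGRIN2D and −2.03, −1.95, −1.59 and −1.60 in ASP shDHPS. All 16 pellets were at or below −1.59 and the conditions overlapped (fitted −2.01 ± 0.20 in ASP shSCR, edgeR adjusted p = 4.63e-08). Cox7a2l, a factor that joins complexes III and IV into supercomplexes, was at −1.65, Cox7c at −1.10, Cox6a1 at −1.06 and Cox6c at −1.05. Cox4i1, the main form of the largest nuclear-encoded subunit, was at −0.76 and was called in all conditions but ASP shDHPS (−0.46 ± 0.21, edgeR adjusted p = 0.0849). Cox5b, Cox5a and Cox6b1 lay near 0, at −0.20, −0.08 and −0.06.

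Among Cox genes with a mean of at least 50 counts Cox7b had the highest ratio, at 0.16 ± 0.57, and its sign was not stable between pellets: −0.94, 1.55, 0.01 and −0.18 in ASP shSCR, 0.26, 0.71, −0.06 and 0.23 in NoASP shSCR, −0.48, 0.35, 0.59 and −0.15 in ASP shGRIN2D and −0.35, 0.62, 0.16 and 0.23 in ASP shDHPS. It still exceeded Cox8a in 16 of 16 pellets, by 2.13 ± 0.55 (SD), and Cox7c in 16 of 16, by 1.25 ± 0.29. As the coding sequences printed above show, all 3 are short open reading frames, of 243, 210 and 192 bases.

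In ATP synthase the catalytic head subunits Atp5a1 and Atp5b were at 1.42 ± 0.38 and 1.37 ± 0.37, polysomal in every condition. Of the other head and stalk subunits Atp5pb was at 0.53, Atp5c1 at 0.44, Atp5h at 0.38, Atp5d at 0.30 and Atp5o at 0.22, while Atp5j was at −0.69 ± 0.34. Atp5e, the smallest head subunit, was at −1.27 ± 0.47, and the small membrane subunits Atp5md and Atp5mpl at −1.04 and −0.98. The ring subunit c is encoded by Atp5g1, Atp5g2 and Atp5g3, whose mature proteins are the same while their import signals differ. Their ratios were −0.50, −0.24 and 0.55, and Atp5g3 exceeded Atp5g1 in 16 of 16 pellets by 1.05 ± 0.38 (SD) and Atp5g2 in 16 of 16 by 0.79 ± 0.49. The 3 coding regions are 411, 441 and 426 bases long.

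Tissue isoforms were close to absent. The muscle forms Cox6a2 and Cox7a1 and the lung form Cox4i2 had mean polysomal levels of 0.163, 0.779 and 0.201 CPM per kilobase of coding sequence, against 709, 600.4 and 1218 for Cox6a1, Cox7a2 and Cox4i1. Between the related Cox7a2 and Cox7a2l, Cox7a2 was higher in 15 of 16 pellets, by 0.86 ± 0.57 (SD). No gene of the count table stood under the symbols Cox6b2, Cox8b, Ndufa4l2 or Atp5if1 (the ATPase inhibitor), so these were not analysed here.

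The ratio followed coding length among the subunits. Among members with fewer than 300 coding bases the median log2 ratio was −1.03 (19 genes, from −1.97 to 0.50), from 300 to under 450 bases −0.23 (25 genes), from 450 to under 600 bases −0.23 (12 genes), from 600 to under 1000 bases 0.44 (9 genes) and at 1000 or more 1.57 (11 genes, from −0.76 to 2.00). The other genes gave −1.03, −0.63, −0.26, 0.07 and 0.31 in the same bins (189, 473, 643, 1976 and 6988 genes). The shortest members lay where other short genes lay, and the longest lay above other long genes. Spearman's rho across genes was 0.672 over 76 members and 0.192 over 10269 other genes, a description only, since genes share libraries and depth. In single pellets it ran from 0.435 to 0.764 among members and from −0.024 to 0.368 among the other genes. Members are mostly short: 59 of the 79 with an annotated coding length (74.7%) were under 600 bases, against 13.8% of all protein-coding genes, with medians of 414 and 1353 bases. The length of the whole transcript gave a rho of 0.620 among members and 0.007 among the other genes, and 5′ and 3′ untranslated lengths gave 0.172 and 0.157 among members.

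**Figure D2:**
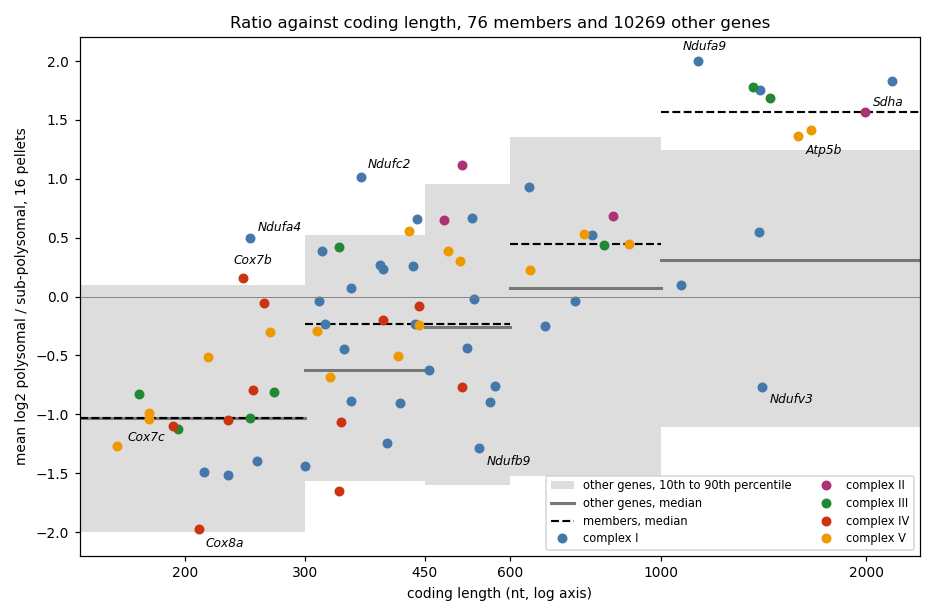
Mean log2 polysomal to sub-polysomal ratio over 16 pellets against coding length in bases (log axis). Points are 76 members coloured by complex, dashed lines their median per length bin, and grey bands and lines the 10th to 90th percentile and the median of the other genes; the members' median goes from −1.03 under 300 bases to 1.57 at 1000 bases or more.

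Other gene groups set these values in context. The 78 mitochondrial ribosomal proteins, nuclear-encoded and imported like the subunits, had 23 polysomal and 23 sub-polysomal members in ASP shSCR. The 75 cytosolic ribosomal proteins had 0 polysomal and 70 sub-polysomal in ASP shSCR. The shares of all genes called in each direction in ASP shSCR, given above, stand beside these counts. All 13 mitochondrially encoded subunits were sub-polysomal in each condition, with a fitted ratio of −2.49 ± 0.31 for mt-Cytb in ASP shSCR. Their messages are translated inside the organelle, not on the cytosolic ribosomes of the gradient. The same ratio in ASP shSCR replicate 1 had a median of only −0.45 over the 13, against −2.56 to −4.52 in the other pellets.

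The start codon context was compared with that of all protein-coding genes. The letters of the TISU element, a translation initiator known from mRNAs with short leaders and common in housekeeping genes, stood at the start codon of 10 of 79 members (12.7%) and of 196 of 13335 protein-coding genes (1.47%). The windows of 18 bases of 8 of them are printed 5′ to 3′ with the start codon in capitals, because they share these letters yet not a ratio.
Ndufa6: ctcggcaagATGgcggcc
Ndufa9: tgggagaagATGgcggcc
Ndufs3: ctaaggaacATGgcggcg
Ndufs4: tacaggaagATGgcggcg
Ndufs6: accggcaagATGgcggcg
Ndufs7: gaggccaagATGgcggcg
Sdhb: ggagccaaaATGgcggcg
Uqcrc1: agttagaagATGgcggcg
Their mean log2 ratios ran from 2.00 for Ndufa9 and 1.69 for Uqcrc1 to −0.89 for Ndufs6 and −1.24 for Ndufa6, and Ndufa2, which holds the same letters, was at −1.44. The match is a description of the sequence and not of its use.

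Promoters were searched on both strands from 250 bases before to 50 after the start in the RefSeq table (GRCm38.p6), which held 66 members among 17492 genes. The letters of the NRF1 motif stood in 17 members (25.8%) and 7.17% of all genes, and the ETS letters CCGGAAG in 17 (25.8%) and 12.9%. The YY1 letters AAGATGGC, which overlap the letters of the TISU element, stood in 10 (15.2%) and 3.57%, and the CRE letters TGACGTCA in 4 (6.06%) and 2.54%. These are counts of matching letters and not of sites.

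Levels of the subunits were ranked per kilobase of coding sequence, although reads also came from the untranslated ends. In polysomal libraries Ndufa4 led at 2029 ± 597 CPM per kilobase (SD, n = 16), before Cox4i1 at 1218 ± 403 and Atp5b at 1181 ± 240, and Cox4i1 and Atp5b did not differ beyond their spread. In sub-polysomal libraries Cox8a led at 3237 ± 563, followed by Cox4i1 at 1992 ± 299 and Cox6c at 1947 ± 496. Cox8a was rank 10 in the polysomal libraries at 834 ± 195. Over both fractions the 4 highest were Cox8a, Ndufa4, Cox4i1 and Cox6c.

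Between conditions the medians moved less than single pellets did. The median log2 ratio of the 78 members was −1.21, 0.42, −0.25 and −0.43 in the ASP shSCR pellets, a mean of −0.37 ± 0.67 (SD, n = 4). It was −0.12 ± 0.20 in NoASP shSCR, −0.20 ± 0.49 in ASP shGRIN2D and 0.11 ± 0.29 in ASP shDHPS. ASP shSCR held both the lowest and the highest pellet of the study, and all groups overlapped. Without its replicate 1 the ASP shSCR mean was −0.09 ± 0.45 (n = 3), above those of NoASP shSCR and ASP shGRIN2D. Complex I core subunits were at 0.41 ± 0.43, 0.54 ± 0.25, 0.74 ± 0.19 and 0.96 ± 0.15 in this order of conditions. The 31 other Nduf-named genes, counted as accessory with Ndufa4 and Ndufb4c among them, were at −0.58 ± 0.74, −0.36 ± 0.17, −0.37 ± 0.41 and 0.01 ± 0.34. Complex IV was at −0.88 ± 0.64, −0.83 ± 0.22, −0.92 ± 0.62 and −0.54 ± 0.30, and ATP synthase at −0.21 ± 0.46, −0.10 ± 0.10, −0.13 ± 0.35 and 0.22 ± 0.25. Without replicate 1 the ASP shSCR values were 0.61 ± 0.23 for the core and −0.29 ± 0.56 for the accessory subunits, −0.70 ± 0.64 for complex IV and −0.02 ± 0.30 for ATP synthase. Mitochondrial ribosomal proteins were at −0.00 ± 0.52 in ASP shSCR (0.19 ± 0.43 without replicate 1) and 0.38 ± 0.20 in ASP shDHPS, and cytosolic ribosomal proteins at −1.14 ± 0.26 (−1.21 ± 0.27) and −0.60 ± 0.30. The mitochondrially encoded subunits were at −2.57 ± 1.44 in ASP shSCR and −3.80 ± 0.56 in ASP shDHPS, and at −3.28 ± 0.32 in ASP shSCR without replicate 1, close to the −3.24 ± 0.49 of NoASP shSCR.

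**Figure D3:**
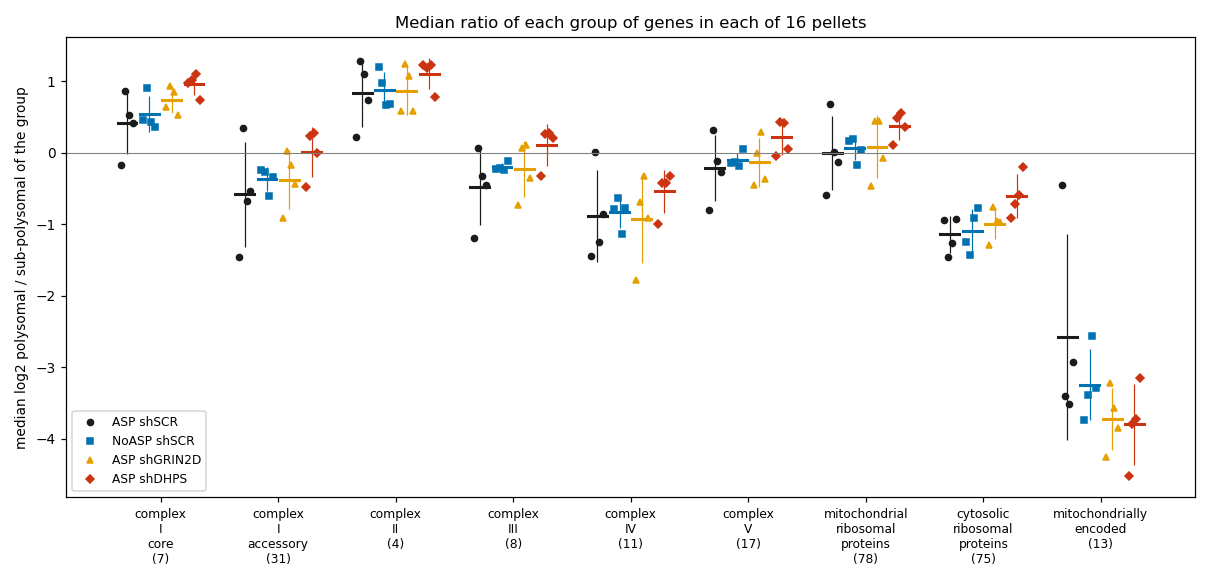
Median log2 polysomal to sub-polysomal ratio of each gene group in each of the 16 pellets, by condition, with the number of genes under each group; each point is a pellet, horizontal lines are means and vertical lines SD (n = 4). ASP shSCR replicate 1 is the lowest pellet for the accessory group of complex I (−1.45) and the highest for the mitochondrially encoded genes (−0.45). That accessory group holds all Nduf-named genes outside the core, Ndufa4 and Ndufb4c included.

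Aspartate was compared through ASP shSCR minus NoASP shSCR. No subunit differed in its ratio (0 of 83 by edgeR and by DESeq2), and 0 had an unadjusted p under 0.05, where 1.93% of all genes did. The median log2 difference was −0.17 with 72 of 83 members negative, against 51.7% of all genes. That tilt depended on single pellets. Of the 78 members with enough counts 70 were negative with ASP shSCR replicate 1 and 30 without it, and their median went from −0.18 to 0.05, while without ASP shSCR replicate 2 it went to −0.43. The smallest p values belonged to Ndufv1 (−0.43 ± 0.30), the F1FO subunit gene Atp5md (−0.43 ± 0.31) and Ndufb4 (−0.39 ± 0.29), each at an edgeR adjusted p of 1. Without ASP shSCR replicate 1 they were at −0.25, −0.24 and −0.18, and without replicate 2 Atp5md and Ndufb4 were at −0.73 and −0.67. The median SE of a member was 0.31 on the log2 scale.

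The GRIN2D knockdown was compared through ASP shSCR minus ASP shGRIN2D, which shares the ASP shSCR libraries with the comparison above. Again 0 of 83 differed by edgeR or DESeq2 and 0 had an unadjusted p under 0.05 (3.22% of all genes). The median was −0.16 with 66 of 83 negative (51.3% of all genes), and among the 78 it went from −0.16 with 63 negative to 0.07 with 28 negative without ASP shSCR replicate 1, to −0.42 without ASP shSCR replicate 2, and to −0.30, −0.06 and −0.02 without ASP shGRIN2D replicates 1, 2 and 3. Both core proteins of complex III had the smallest p values, Uqcrc1 at −0.56 ± 0.29 and Uqcrc2 at −0.49 ± 0.25, with Ndufv1 at −0.53 ± 0.31 (edgeR adjusted p = 1 for each). Uqcrc1 was at −0.36 without ASP shSCR replicate 1 and Ndufv1 at −0.31 without ASP shGRIN2D replicate 1. The Uqcrc2 pellets were at 1.26, 1.18, 1.72 and 1.87 in ASP shSCR and at 2.06, 1.88, 2.04 and 1.98 in ASP shGRIN2D. They did not overlap, which held for 2 members (Uqcrc2 and Ndufa10) and for 1.04% of all genes in this direction, and for 2 and 1.84% without ASP shSCR replicate 1.

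The DHPS knockdown gave the largest differences of the subunits among these comparisons, in ASP shSCR minus ASP shDHPS. The median was −0.40 and 79 of 83 members were negative, while all genes had a median of 0.01 and 49.2% of them were negative. No member passed by edgeR (0 of 83, where 0.208% of all genes were called), while 16 reached an unadjusted p under 0.05, all lower in ASP shSCR, against 4.93% of all genes in that direction. DESeq2 called 7 among 664 genes (3.74% of all genes), including Ndufa13, Atp5g2, Ndufa10, Ndufb2, Ndufs8 and Uqcrc1. That share is over all 17757 genes, of which 6885, among them 5 members, had no DESeq2 adjusted p and could not be called. Without ASP shSCR replicate 1 the median of the 78 went from −0.41 to −0.18 and the negative ones from 75 to 63, while without ASP shSCR replicate 2 the median was −0.64. With replicate 1 left out 6 had an unadjusted p under 0.05 (Ndufa13, Atp5g2, Ndufa10, Ndufb2, Ndufs8 and Uqcrc1), against 5.31% of all genes in that direction, and DESeq2 called 3 (Ndufa13, Ndufa10 and Atp5g2) among 564 genes (3.18%).

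**Figure D4:**
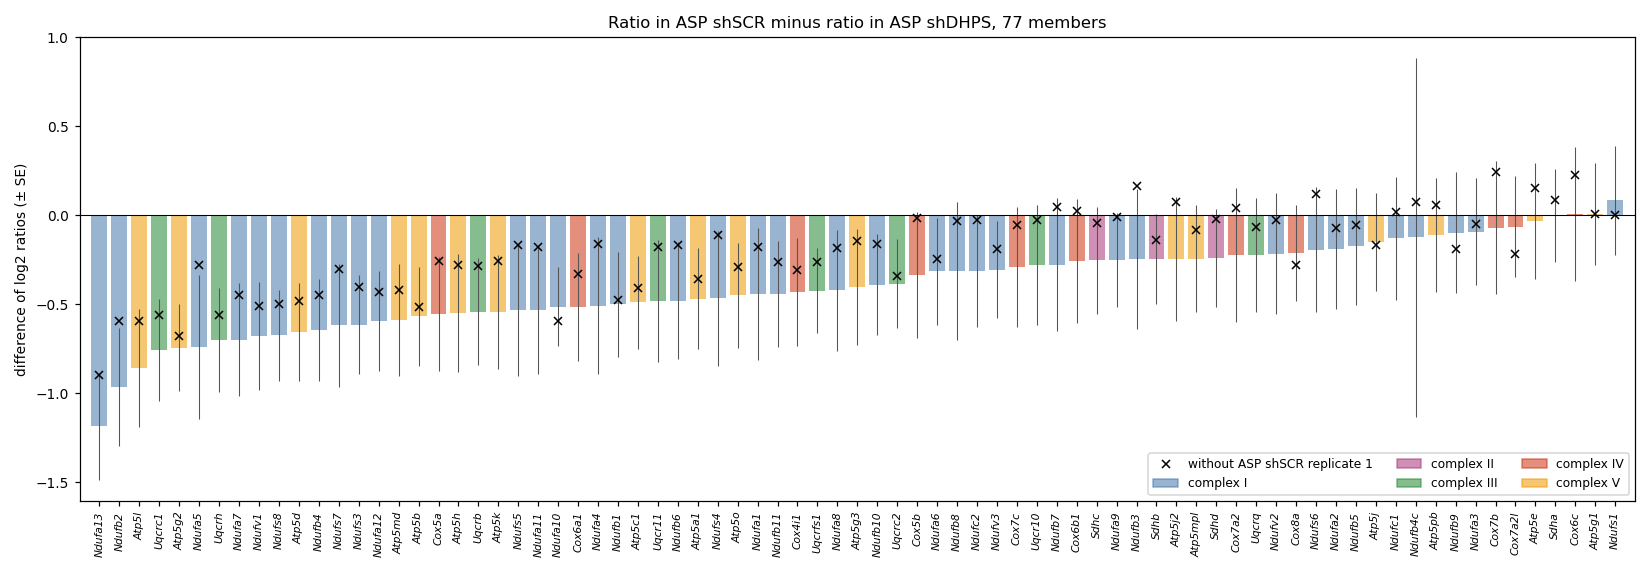
Fitted difference of log2 ratios, ASP shSCR minus ASP shDHPS (y axis), of 77 members; bars with SE show all pellets, coloured by complex, and crosses the values without ASP shSCR replicate 1. Most members lie below 0 in both fits, and Ndufa13 lies lowest at −1.19.

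Ndufa13 (ENSMUSG00000036199, chr8:69894180-69902558, minus strand, GRCm38), an accessory subunit of complex I also known as GRIM-19, had the smallest p. Its pellet ratios were −1.65, 0.22, −0.68 and −0.54 in ASP shSCR, −0.24, −0.46, −0.61 and −0.34 in NoASP shSCR, −0.90, −0.04, −0.21 and −0.44 in ASP shGRIN2D and 0.57, 0.45, 0.81 and 0.29 in ASP shDHPS. All ASP shDHPS pellets were above every pellet of the other conditions. The difference was −1.19 ± 0.30 (edgeR adjusted p = 0.0750), and it ran from −1.50 to −0.90 when each pellet was left out in turn, with adjusted p from 0.0611 to 0.259. It passed by DESeq2 (−1.23, adjusted p = 0.00331) and in a test restricted to genes that reached 10 counts in all libraries (edgeR adjusted p = 0.0390). It also passed with a block for replicate number (−1.19, edgeR adjusted p = 0.0378). Within ASP shSCR its ratio was below 0 (−0.66 ± 0.22, edgeR adjusted p = 0.0160) and within ASP shDHPS above 0 (0.53 ± 0.21, edgeR adjusted p = 0.0444). Both calls were lost when certain single pellets were left out. The first went to −0.40 without ASP shSCR replicate 1 (edgeR adjusted p = 0.121) and did not pass without replicate 3 either (−0.65, edgeR adjusted p = 0.0549), and the second ran from 0.44 to 0.61 and did not pass whichever ASP shDHPS pellet was left out (edgeR adjusted p from 0.0542 to 0.180).

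The Ndufa13 groups were apart in the sub-polysomal libraries and not in the polysomal ones. Its sub-polysomal level was 211.8, 203.3, 191.3 and 186.9 CPM in ASP shSCR and 127.4, 138.1, 126.5 and 117.7 CPM in ASP shDHPS. These did not overlap, and the log2 difference was 0.64 ± 0.17 (edgeR adjusted p = 0.0538). With a block for replicate number Ndufa13 passed here (0.65, edgeR adjusted p = 0.00903). Its polysomal level was 67.6, 236.8, 119.5 and 128.7 CPM against 189.2, 188.5, 221.4 and 143.9 CPM, which overlapped. In NoASP shSCR the sub-polysomal level was 168.6, 181.8, 221.5 and 118.0 CPM and in ASP shGRIN2D 189.1, 227.2, 150.0 and 150.7 CPM.

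Atp5g2 (ENSMUSG00000062683, chr15:102662864-102672352, minus strand, GRCm38), the subunit c gene in the middle of the 3, came next. Its ratios were −0.83, −0.89, −0.11 and −0.26 in ASP shSCR, −0.14, −0.60, −0.37 and −0.29 in NoASP shSCR, −0.30, −0.08, −0.44 and −0.36 in ASP shGRIN2D and 0.34, 0.13, 0.42 and −0.02 in ASP shDHPS. The ASP shDHPS pellets again lay above all others. The difference was −0.74 ± 0.25 (edgeR adjusted p = 0.164) and passed by DESeq2 (−0.79, adjusted p = 0.00816). Ndufb2, a small membrane subunit of complex I, was at −1.22, 1.13, −0.03 and 0.20 in ASP shSCR and at 0.98, 0.95, 1.35 and 0.66 in ASP shDHPS, which overlapped through replicate 2 (−0.97 ± 0.33, edgeR adjusted p = 0.178). Its difference was −0.60 without ASP shSCR replicate 1 and −1.35 without replicate 2. In all, 8 members had every ASP shSCR pellet below every ASP shDHPS pellet (including Ndufa10, Ndufa13, Ndufs3, Ndufs8, Uqcrfs1, Atp5b and Atp5g2), against 2.15% of all genes. Without ASP shSCR replicate 1 these were again 8 members, against 4.11% of all genes.

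By coding length the members' median difference in this comparison was −0.25 under 300 bases, −0.51 from 300 to under 450, −0.41 from 450 to under 600, −0.45 from 600 to under 1000 and −0.47 at 1000 or more. The other genes gave −0.10, −0.13, −0.08, −0.08 and 0.05. Without ASP shSCR replicate 1 the members gave −0.06, −0.22, −0.17, −0.29 and −0.36 and the other genes −0.08, −0.07, −0.08, −0.13 and 0.02. The cytosolic ribosomal proteins had a median difference of −0.56 with 73 of 75 negative, the mitochondrial ribosomal proteins −0.31 with 67 of 78 negative, and the mitochondrially encoded subunits 1.24 with 0 of 13 negative. Without that pellet these medians were −0.64, −0.20 and 0.62, with 75, 64 and 1 negative. The part that the share of mitochondrially encoded reads played in the subunits' differences was not tested.

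ASP shGRIN2D minus ASP shDHPS uses no ASP shSCR library, so the pellet that stood apart does not enter its groups, while the ASP shDHPS libraries are shared with the comparison above. The median was −0.24 with 76 of 83 negative (51.0% of all genes). Single pellets moved it here too: among the 78 members it was −0.24, and it went to −0.01 with 42 negative without ASP shGRIN2D replicate 1, to −0.36 and −0.38 without ASP shGRIN2D replicates 2 and 3 and to −0.37 without ASP shDHPS replicate 1. DESeq2 gave no adjusted p for 5508 genes, among them 5 members, in this comparison. By test, 0 members passed by edgeR (0.00563% of all genes did) or DESeq2 (0.208%), and 3 had an unadjusted p under 0.05, all lower in ASP shGRIN2D (1.21% of all genes). These were Ndufa13 (−0.92 ± 0.30, edgeR adjusted p = 0.440), Ndufb2 (−0.72 ± 0.32, edgeR adjusted p = 0.717) and Atp5g2 (−0.52 ± 0.24, edgeR adjusted p = 0.764). With Ndufa5 and Uqcrfs1 they made up the 5 members whose pellets did not overlap, against 1.53% of all genes in that direction.

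Levels were compared in each fraction on its own. No member passed in the main edgeR fit of any of the 8 level comparisons (0 of 83 each). With a block for replicate number 3 calls appeared, all in ASP shSCR minus ASP shDHPS. They were Atp5l in the polysomal fraction (−0.74, edgeR adjusted p = 0.0421) and Ndufa13 and Atp5g2 in the sub-polysomal one. In the polysomal fraction the all-gene share of calls was 0%, 0.0169%, 0.169% and 0.0845% for ASP shSCR minus NoASP shSCR, ASP shSCR minus ASP shGRIN2D, ASP shSCR minus ASP shDHPS and ASP shGRIN2D minus ASP shDHPS, and in the sub-polysomal fraction 0%, 0.315%, 1.41% and 0.726%. In this order 0, 2, 6 and 1 members had an unadjusted p under 0.05 in the polysomal fraction (7.75%, 9.06%, 16.4% and 9.4% of all genes) and 1, 4, 7 and 2 in the sub-polysomal one (4.91%, 11%, 16% and 10.7%). DESeq2 called 0 members in the polysomal fraction, where it called 0.00563%, 0.389%, 3.12% and 1.15% of all genes. In the sub-polysomal fraction it called 0, 0, 2 and 0, against 0.00563%, 1.3%, 3.67% and 1.52% of all genes, and the 2 were Ndufa13 and Atp5g2 in ASP shSCR minus ASP shDHPS.

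In ASP shSCR minus ASP shDHPS the members' polysomal log2 difference had a median of −0.23 with 70 of 83 negative, where all genes had a median of 0.05 and 45.4% were negative. The sub-polysomal log2 difference had a median of 0.11 with 25 negative, where 50.8% of all genes were. Without ASP shSCR replicate 1 the median of the 78 members went from −0.23 to −0.13 in the polysomal fraction and from 0.10 to 0.05 in the sub-polysomal one. Ndufa9 (ENSMUSG00000000399, chr6:126821721-126849136, minus strand, GRCm38) led the polysomal side, at 63.7, 97.6, 98.7 and 101.7 CPM in ASP shSCR and 125.6, 121.9, 129.5 and 132.1 CPM in ASP shDHPS. The groups did not overlap (−0.45 ± 0.16, edgeR adjusted p = 0.182). Ndufs3 was at −0.42 ± 0.16 and Atp5d, the δ subunit of the ATP synthase head, at −0.51 ± 0.19 (edgeR adjusted p = 0.197 and 0.204). On the sub-polysomal side Ndufa13 was followed by Atp5g2, at 388.3, 530.6, 313.4 and 298.4 CPM in ASP shSCR and 295.2, 275.2, 258.2 and 247.0 CPM in ASP shDHPS. These did not overlap either, by a small margin (0.51 ± 0.17, edgeR adjusted p = 0.130), and the difference was 0.31 without ASP shSCR replicate 2. With a block for replicate number Atp5g2 passed here (0.49, edgeR adjusted p = 0.0372). Of the 7 epithelial markers 3 were higher in the sub-polysomal libraries of ASP shSCR than in those of ASP shDHPS by edgeR, led by Krt19 at 1.04 ± 0.18, and 4 did not pass. Cd68, the main leukocyte marker, was at 11.1 ± 1.85 CPM (SD, n = 4) in the polysomal libraries of ASP shSCR and 22.1 ± 3.48 in those of ASP shDHPS, a log2 difference of −0.94 ± 0.21 that did not pass (edgeR adjusted p = 0.0684). The part of these markers in the subunits' values was not tested.

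**Figure D5:**
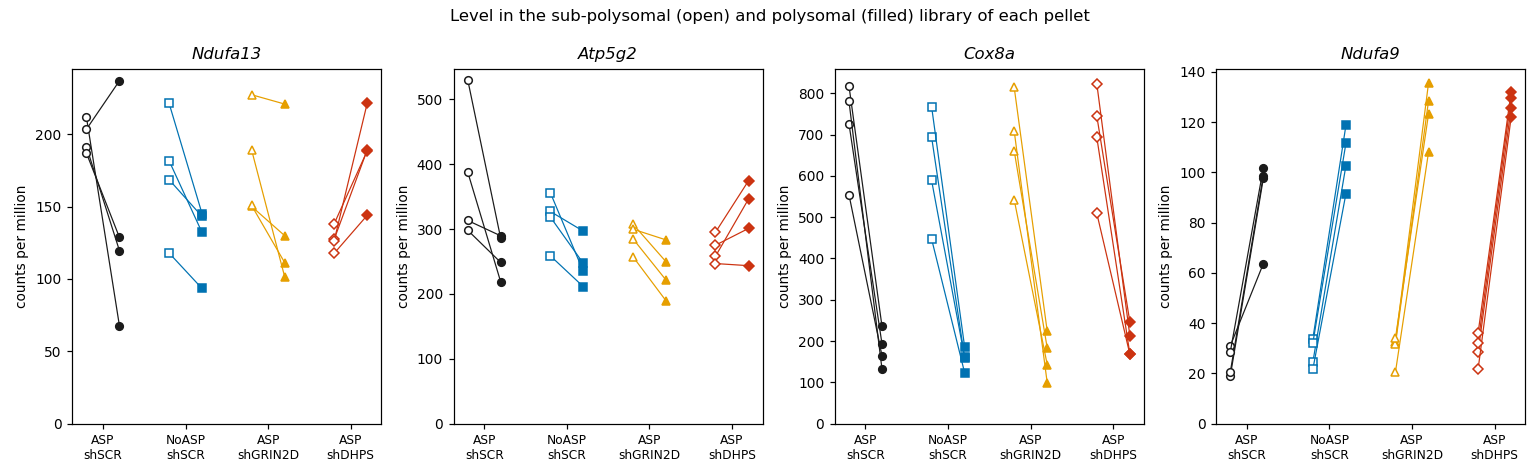
CPM of Ndufa13, Atp5g2, Cox8a and Ndufa9 in every library, by condition; open points are sub-polysomal and filled points polysomal libraries. Cox8a is higher in the sub-polysomal library of each pellet and Ndufa9 in the polysomal one, while Ndufa13 is higher in the polysomal library of all 4 ASP shDHPS pellets (143.9 to 221.4 CPM against 117.7 to 138.1).

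In the remaining level comparisons no member passed either. Against NoASP shSCR the smallest p values were those of Cox7a2l (0.46 ± 0.28), Ndufb9 (0.52 ± 0.35) and Atp5g1 (0.33 ± 0.23) in the polysomal fraction and of Sdha (−0.37 ± 0.15), Ndufa10 (0.24 ± 0.14) and Atp5g2 (0.29 ± 0.17) in the sub-polysomal one. Several rested on 1 pellet: Cox7a2l was at 0.17 without ASP shSCR replicate 1, Ndufb9 at 0.22 and Atp5g2 at 0.079 without ASP shSCR replicate 2, and Atp5g1 at 0.16 without NoASP shSCR replicate 4. Against ASP shGRIN2D they were those of Ndufa9 (−0.39 ± 0.16), Cox4i2 (3.01 ± 1.30), which rests on a mean of 1.25 counts, and Uqcrc2 (−0.28 ± 0.20) in polysomal libraries and of Ndufv1 (0.41 ± 0.16), Atp5g2 (0.42 ± 0.17) and Ndufa6 (0.38 ± 0.19) in sub-polysomal ones. Of these Cox4i2 was at 5.31 without ASP shGRIN2D replicate 1 and Atp5g2 at 0.20 without ASP shSCR replicate 2. Between the knockdowns they were Atp5g2 (−0.44 ± 0.19), Ndufv1 (−0.52 ± 0.25) and Atp5d (−0.36 ± 0.19) in polysomal libraries and Ndufa13 (0.49 ± 0.17), Ndufv1 (−0.39 ± 0.16) and Sdhd (0.31 ± 0.16) in sub-polysomal ones, with polysomal Ndufv1 at −0.34 without ASP shDHPS replicate 1. With all pellets none had an edgeR adjusted p under 0.249.

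Genes that work with the subunits were read from 5 lists, whose counts stand beside the 20.8%, 23.7%, 23% and 21.8% of all genes that were polysomal in ASP shSCR, in NoASP shSCR, in ASP shGRIN2D and in ASP shDHPS and the 18.9%, 20.6%, 20.4% and 21.3% that were sub-polysomal. Of 20 further subunits and carriers, such as cytochrome c1, cytochrome c and coenzyme Q enzymes, 7 were polysomal in ASP shSCR, 10 in NoASP shSCR, 9 in ASP shGRIN2D and 13 in ASP shDHPS, and 2 were sub-polysomal in each. Etfb, of the electron transfer flavoprotein, had the smallest p in ASP shDHPS (2.01 ± 0.20) and Coq3, a methyltransferase of coenzyme Q synthesis, in the 3 other conditions (1.56 ± 0.20 in ASP shSCR). Cyc1, the cytochrome c1 subunit of complex III, had a ratio of 0.06 ± 0.20 in ASP shSCR and 0.73 ± 0.20 in ASP shDHPS, and the difference of −0.67 ± 0.29 did not pass (edgeR adjusted p = 0.296). Ndufab1, the acyl carrier protein that complex I holds, was at 0.34 ± 0.22 and 0.75 ± 0.22.

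Of the 18 measured enzymes of the tricarboxylic acid cycle list 15, 17, 17 and 17 were polysomal in the same order of conditions and 0 sub-polysomal in any, led by Suclg1, a subunit of succinyl-CoA ligase, at 1.76 ± 0.17 in ASP shSCR. Assembly factors of the complexes (54 of 58 listed) had 13, 12, 13 and 12 polysomal and 23, 21, 20 and 19 sub-polysomal members. Ndufaf8, a complex I assembly factor, was at −1.93 ± 0.20 in ASP shSCR and Coa5, of complex IV, at −2.16 ± 0.23 in ASP shDHPS. Import machinery (29 of 30) had 6, 6, 6 and 7 polysomal and 16 sub-polysomal in each, led by Dnajc19 at −1.88 ± 0.23. Regulators of mitochondrial genes (20) had 4, 6, 6 and 5 polysomal and 2, 1, 2 and 3 sub-polysomal, with Lrpprc, which binds mitochondrial mRNA, at 1.16 ± 0.19 in ASP shSCR and the nuclear receptor Esrra at −1.96 ± 0.26 in NoASP shSCR.

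Between conditions 1 gene of these 5 lists passed by edgeR in any ratio or level comparison: Etfdh, which feeds electrons into the quinone pool, lower in the sub-polysomal libraries of ASP shSCR than in those of ASP shDHPS (−0.63 ± 0.15, edgeR adjusted p = 0.0320). In the ratio difference of ASP shSCR and ASP shDHPS the smallest p of each list belonged to Coq4 (−0.66 ± 0.26), the copper chaperone Sco2 (−0.88 ± 0.26), the isocitrate dehydrogenase Idh2 (−0.65 ± 0.29), the import channel Tomm40 (−0.80 ± 0.23) and the ETS factor Gabpa (0.77 ± 0.26), with edgeR adjusted p from 0.117 to 0.313. Against NoASP shSCR they were Coq4 (−0.55), Cox20 (−0.56), Idh2 (−0.41), Timm23 (0.68) and Lonp1 (−0.49). Against ASP shGRIN2D they were Coq3 (−0.50), Coa5 (0.65), Idh3b (−0.42), Tomm40 (−0.45) and Esrra (0.40), and between the knockdowns Coq4 (−0.44), Ndufaf8 (−0.49), Dld (0.64), Pam16 (−0.66) and Gabpa (0.89). No value of these 3 comparisons had an edgeR adjusted p under 0.352.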

How the data were processed

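The count table was used as deposited by the authors. Reads of the stranded mRNA libraries were trimmed with Trim Galore 0.6.6, checked with FastQC 0.11.9 and aligned with STAR 2.6.1 to GRCm39, and transcripts were quantified with Salmon 1.4.0. The authors rounded these estimates to whole counts per gene and kept a gene where at least 1 group expressed it in 3 or more replicates. Their own comparisons, made with DESeq2 1.34.0 (shrunken log2 differences, p and q values and gene set scores), were not used here.

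Every column of the count table was matched to a sample (0 columns were left over). Libraries held 12870563 to 25639437 counts, and this depth covers counting error only. Per gene, edgeR 4.0.16 in R 4.3.3 fitted quasi-likelihood models with TMM scaling. The ratio model used all 32 libraries, with pellet terms (16 pellets) and a log2 polysomal to sub-polysomal ratio for each condition. Levels were fitted within each fraction over its 16 libraries. P values were adjusted after Benjamini and Hochberg over all 17757 genes, with a threshold of 0.05. Ratios of single pellets are differences of log2 CPM with a prior count of 2. Medians and length comparisons used genes with a mean of at least 50 counts. The study's methods call the 4 pellets of a condition independent without saying how they were grown apart, so p values measure the spread between these pellets.

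Coding lengths, start codon windows and positions came from GENCODE M21 (GRCm38), which matched 79 of the 83 members and 94.9% of the 10909 genes with a mean of at least 50 counts. No length was used for Cox6c2, Ndufb1, Ndufb4c and Ndufs6b. Salmon can split reads between near-identical copies, so members with pseudogenes or copies are less certain.

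The members and lists were chosen with earlier results of these data known. Named genes are the highest and lowest of each complex, the 3 smallest p values of each comparison, isoforms, the 4 highest per coding length, Dhps, Grin2d and the smallest p of each list. Other genes that are named, such as further subunits of each complex, were chosen after their values were seen. The values of 1 member, which stays in all counts and medians, are not reported here. Alternatives were DESeq2 1.42.0 (Wald test), its size factors, a minimum of 10 counts in every library and replicate blocks across conditions. Further ones were a ratio fit with condition terms in place of pellet terms, fits of the compared conditions alone, and leaving out each pellet. DESeq2 without replicate 1 of ASP shSCR was added after the data were seen.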

Additional observations from a re-analysis of the deposited data

Results flagged for a closer look

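Within groups of 4 pellets or libraries, 12 of 248 sets of values had 1 sample whose gap to the nearest of the others was above Dixon's critical value as a share of the whole range. Many of these sets share pellets and genes, so their number cannot be set against a rate for independent groups. None of these values was tested further.

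Of single subunits, the log2 ratio of Cox8a was −2.84 in ASP shGRIN2D replicate 1 against −1.92 to −1.85 in the others. In ASP shDHPS 3 subunits had such a pellet. Atp5d was at 0.059 in replicate 4 against 0.78 to 0.90, Cox7a2 at −1.52 in replicate 1 against −0.48 to −0.32, and Ndufa10 at 0.55 in replicate 3 against 0.29 to 0.33.

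The medians of 3 complexes were set apart in ASP shDHPS as well. Complex II was at 0.78 in replicate 4 against 1.18 to 1.24, complex III at −0.33 in replicate 1 against 0.21 to 0.28 and complex IV at −0.99 in replicate 1 against −0.42 to −0.32.

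The other values are shares of the counts of a library. In the polysomal library of ASP shSCR replicate 1, mitochondrially encoded subunits took 4.31% against 0.678% to 0.935% and mitochondrial rRNA 0.411% against 0.0135% to 0.0694%. In sub-polysomal libraries mitochondrial rRNA took 0.276% in ASP shSCR replicate 4 against 0.107% to 0.130%, and 0.449% in ASP shDHPS replicate 4 against 0.144% to 0.171%. Complex I subunits took 0.363% in the sub-polysomal library of ASP shSCR replicate 2 against 0.453% to 0.471%.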

How the results depend on the processing

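Summed over both directions, the counts of subunits called within a condition moved by less than 1.5 times under every alternative. They ran from 41 to 52 in ASP shSCR, 39 to 42 in NoASP shSCR, 41 to 44 in ASP shGRIN2D and 41 to 47 in ASP shDHPS when 1 pellet was left out, against 47, 46, 48 and 54 with all pellets. Over all 17757 genes these calls ran from 5603 to 7159, 6619 to 7105, 6542 to 7245 and 6373 to 6898. In the same order polysomal calls ran from 9 to 16, 12 to 16, 14 to 19 and 21 to 28 and sub-polysomal calls from 29 to 43, 24 to 29, 22 to 30 and 16 to 23, against 24 sub-polysomal in ASP shDHPS with all pellets. Between conditions 0 subunits were called whichever pellet was left out, in each of the 12 ratio and level comparisons by edgeR.

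Calls appeared only in ASP shSCR minus ASP shDHPS. For the ratio, the DESeq2 Wald test called 7 subunits (of 664 genes), the minimum of 10 counts in every library 1 (Ndufa13), the replicate block 1 (Ndufa13) and DESeq2 without ASP shSCR replicate 1, added after the data were seen, 3 (of 564 genes). For the polysomal level the replicate block called 1 (Atp5l, −0.74, edgeR adjusted p = 0.0421). For the sub-polysomal level DESeq2 called 2 (of 652 genes), the minimum of 10 counts 1, the replicate block 2 (Ndufa13, edgeR adjusted p = 0.00903, and Atp5g2, edgeR adjusted p = 0.0372) and the compared conditions alone 1 (Ndufa13, edgeR adjusted p = 0.0190). The minimum of 10 counts left 77 members among 11046 genes. Cox7b changed sign: within ASP shGRIN2D it was at −0.0032 with that minimum, and leaving out 1 pellet moved it from −0.095 to 0.24 there and from −0.41 to 0.38 within ASP shSCR. Sdhd within ASP shGRIN2D did not pass in the main fit with pellet terms. It passed with the replicate block (0.46) and in a separate fit without pellet terms (0.44), which ignores the pairing of the fractions.

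The study's methods do not say whether the replicate numbers mark shared days or gradients, and whether they pair the pellets was not settled. Deviations of log2 ratios correlated over 0.1 in 13 of 24 same-numbered pairs (median 0.125) and in 20 of 72 other pairs (median −0.03). For polysomal levels these were 16 of 24 (median 0.273) and 21 of 72 (median −0.087). For sub-polysomal levels they were 19 of 24 (median 0.206) and 9 of 72 (median −0.081). Of 16 pellets the best match in another condition had the same number for 8 by ratio, 11 by polysomal and 13 by sub-polysomal level, a hint from the data and not from the design. Of all genes, 37 were called for the ratio in ASP shSCR minus ASP shDHPS. This number was 664 with DESeq2, 266 with the minimum of 10 counts and 231 with the replicate block. It was 0 with DESeq2 size factors, without pellet terms or with the compared conditions alone, and 0 to 83 when 1 pellet was left out. In the polysomal fraction the same contrast gave 30 (0 to 554 over all alternatives) and in the sub-polysomal one 251 (80 to 758), so the shares of all genes given beside the subunits vary as well. The cause of these differences was not tested.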
